A study of Mus musculus with 4 samples.

Results

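The genes of the cytosolic ribosomal proteins were followed in mouse retinal organoids with and without doxycycline. They were taken by symbol (Rpl, Rps or Rplp with a number, and Rpsa), leaving out the S6 kinases, the Rps19 binding protein and entries marked as pseudogenes by -ps, which gave 92 of the 55426 genes in the table. By symbol and annotation they comprise 31 small subunit genes, 43 large subunit genes and the 3 genes of the P stalk (Rplp0, Rplp1 and Rplp2), together 77 canonical genes. The other 15 are 9 paralogs and 6 further entries (Rpl32l, Rpl37rt, Rpl6l, Rps12l1, Rps3a2 and Rps3a3). The GENCODE annotation types 7 members as pseudogenes, namely these 6 entries and Rps4l, which is described here with the paralogs.

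All 4 libraries came from retinal organoids at day 6, grown from 1 cell line labelled as an Rx:GFP Mettl3 knockout that carries a copy of METTL3 with an HA tag that Dox can induce. METTL3 writes N6-methyladenosine on RNA as the active subunit of its complex. The untreated group had 2 libraries without doxycycline (Dox), and the Dox group had 2 libraries treated with 2 µg/ml for 6 days. Every group shared the knockout, the inducible transgene and medium with 0.1 µM AGN, and no group without the knockout was analysed here. The term EV in the sample titles is not explained in the labels, and Mettl3 was at 40.33 and 37.98 FPKM untreated and at 45.2 and 46.37 FPKM with Dox (log2 fold change 0.22, adjusted p = 0.122 in limma). These FPKM do not separate the transgene from the knocked-out locus, so they do not settle whether Dox induced METTL3 here. Nothing in the labels says whether replicates were separate cultures, so p-values measure the spread between these libraries.

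A ribosome is built from ribosomal RNA and a set of proteins that are needed in near-equal number, and nearly every protein is made from a single functional gene with many processed pseudogene copies. Most of these messenger RNAs begin with a C followed by a run of pyrimidines at the very 5′ end, the TOP (terminal oligopyrimidine) tract, through which mTOR and Larp1 control their translation. The mRNAs are short and abundant in growing progenitor cells, and free ribosomal proteins such as Rpl5 and Rpl11 bind Mdm2 when ribosome assembly is disturbed.

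The start regions of the most abundant genes show a feature that the choice by symbol did not use. RefSeq promoter sequences (GRCm38.p6) matched 67 of the 92 members, 57 of them canonical. A tract was scored as a C followed by 5 bases that are each C or T, read on the gene's strand. It began exactly at an annotated start in 11 of the 57 canonical genes (19.3%) against 2.05% of all 27025 genes with a sequence. Within the 30 bases around the start it was found in 33 of 57 (57.9%) against 25.5% of all genes. On the opposite strand of those 30 bases the shares were 10.5% and 28.6%. The 5 most abundant canonical genes with the tract at the start are given below, 5′ to 3′, with the 15 bases before the annotated start base and the 15 that begin with it, and with every base of a tract in capitals.
Rps27 (chr3:90213634-90213663, minus strand): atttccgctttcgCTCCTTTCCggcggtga
Rps18 (chr17:33955651-33955680, minus strand): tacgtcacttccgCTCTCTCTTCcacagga
Rps10 (chr17:27635230-27635259, minus strand): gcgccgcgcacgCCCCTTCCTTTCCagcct
Rps15a (chr7:118116133-118116162, minus strand): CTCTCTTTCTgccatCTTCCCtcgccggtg
Rps6 (chr4:86857353-86857382, minus strand): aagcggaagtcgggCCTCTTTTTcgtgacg

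All 5 encode small subunit proteins, while the rest of the 11 canonical genes with the tract at the start are large subunit genes. Rps6 is the ribosomal protein phosphorylated by the S6 kinases. The 33 canonical genes with a tract in the window showed a median log2 fold change of 0.03, and the 24 without one had a median of -0.01. The windows of the paralog Rps27l and of the pair Rpl22 and Rpl22l1, whose values are described further on, are shown for comparison.
Rps27l (chr9:66946071-66946100, plus strand): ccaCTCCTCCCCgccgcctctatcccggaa
Rpl22 (chr4:152325711-152325740, plus strand): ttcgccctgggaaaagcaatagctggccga
Rpl22l1 (chr3:28805493-28805522, plus strand): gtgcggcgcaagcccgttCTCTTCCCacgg

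Rps27l and Rpl22l1 hold a tract near the start but not at it, and the window of Rpl22 holds none. A match is a description of these letters at an annotated start and not a measured transcription start. In the same way the pentamer GGACT, the commonest form of the sequence that METTL3 methylates, was counted on the transcript strand of 1 representative GENCODE transcript per gene. It occurred in 41 of the 77 canonical transcripts (53.2%), against 84.7% of the transcripts of all tested genes and 44.4% of the other tested transcripts under 1000 nt. Of the 77 canonical transcripts 51 are themselves under 1000 nt, so the last share is not matched for length. Per 1000 nt there were 0.819 sites in the canonical transcripts, 1.09 in all tested ones and 1.05 in the other tested ones under 1000 nt. The median log2 fold change was -0.00 in canonical genes with the pentamer and 0.04 in those without it.

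Values are FPKM (fragments scaled to transcript length and library size), with a fitted depth of 31700000 to 34900000 fragments per library. Tests used limma on log2(FPKM + 1) over 13931 genes whose mean reached 1 FPKM, and calls were made at 0.05 after Benjamini-Hochberg adjustment over all of them. Fold changes use that scale, Dox against untreated, and FPKM values compare genes per length. The 8 retinal progenitor markers summed to 971.54 and 1133.64 FPKM in the Dox libraries and to 273.01 and 248.5 FPKM in the untreated libraries, where most of the sum was Pax6 and Sox2. Six6 was at 0.01 FPKM in both untreated libraries.

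The canonical genes were expressed at high and ordered levels that the libraries shared. Rpl41, the gene of the smallest ribosomal protein, was the most abundant at 8104.85 and 8651.48 FPKM untreated and 8571.15 and 7205.45 FPKM with Dox. It lay above every other member in each library. Rplp1, Rpl13a and Rps14 were also among the 5 most abundant, with mean levels between 5064.72 and 6036.55 FPKM. Rpl29 was the least abundant canonical gene, at 179.53 and 189.85 FPKM untreated and 203.98 and 180.3 FPKM with Dox. In the listed values it stood apart from Rps3a1, the next in order, whose lowest library was at 615.34 FPKM. Of the short sequence stretches of Rpl29, 50.3% also lie in other genes, as do 45.3% of those of Rps3a1. Reads of both genes therefore cannot be assigned with certainty, and their places at the low end of the order are uncertain. Of the 77 genes, 67 had a mean above 1000 FPKM. The rank correlation of the 77 levels between any 2 libraries was 0.993 to 0.997, a description across genes that share library and depth. Small subunit genes had a median mean level of 2366 FPKM and large subunit genes 1492 FPKM.

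**Figure D1:**
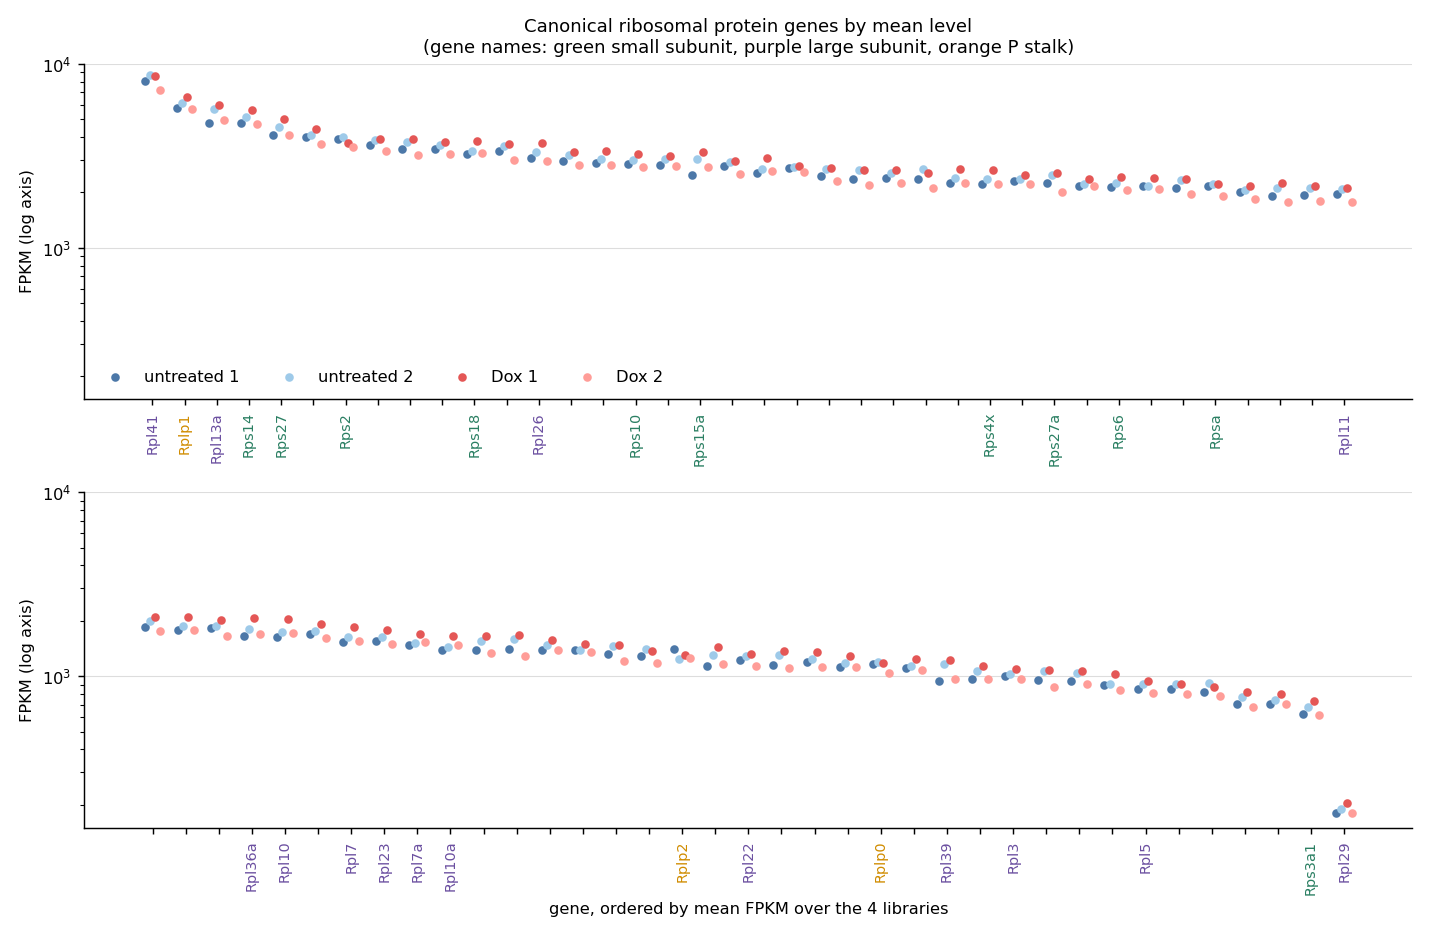
Level of 75 canonical ribosomal protein genes in each library, in FPKM on a log axis, ordered by the mean over the 4 libraries from Rpl41 to Rpl29, with names for the genes described in the text. Points are single libraries, dark and light blue for untreated replicates 1 and 2 and dark and light red for Dox replicates 1 and 2, and the dark red points (Dox replicate 1) are the highest for 67 of them.

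With Dox, no canonical ribosomal protein gene passed the test in either direction. Of the 90 members that passed the filter, 1 was called, against 9.31% of all tested genes, and it is the paralog Rps4l. None was called higher (4.44% of all tested genes) and the 1 was lower (4.87%). At an unadjusted p below 0.05 there were 3 members (Rps4l, Rps27l and Rpl10l, none canonical) against 23.9% of all tested genes. The untested members were Rpl39l and Rpl3l, which lie under the filter at 0.7 to 1 FPKM and 0 to 0.18 FPKM. The median log2 fold change was 0.01 over the tested members and -0.00 over all tested genes, and the median absolute value was 0.05 for the canonical genes against 0.13 for all tested genes.

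The canonical fold changes ran from -0.13 to 0.15, the highest being Rpl10, with 42 above 0 and 35 below. These ends correspond to 91.4% and 111% of the untreated level. All 77 of the 95% intervals spanned 0, all lay within 1 log2 unit of 0 and 74 lay within 0.5, so larger changes of these genes lie outside the intervals of this design. The smallest adjusted p among them was 0.480, for Rpl10a. For 7 of the 90 members the untreated and Dox values were disjoint, against 53.4% of all tested genes. Of these, Rpl10a and Rpl7a were higher and Rps2 was lower among the canonical genes, and the other 4 are paralogs. Rpl10a was at 1391.16 and 1440.22 FPKM untreated and 1656.2 and 1480.98 FPKM with Dox, and 87.1% of its 100-base stretches also lie in other genes.

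**Figure D2:**
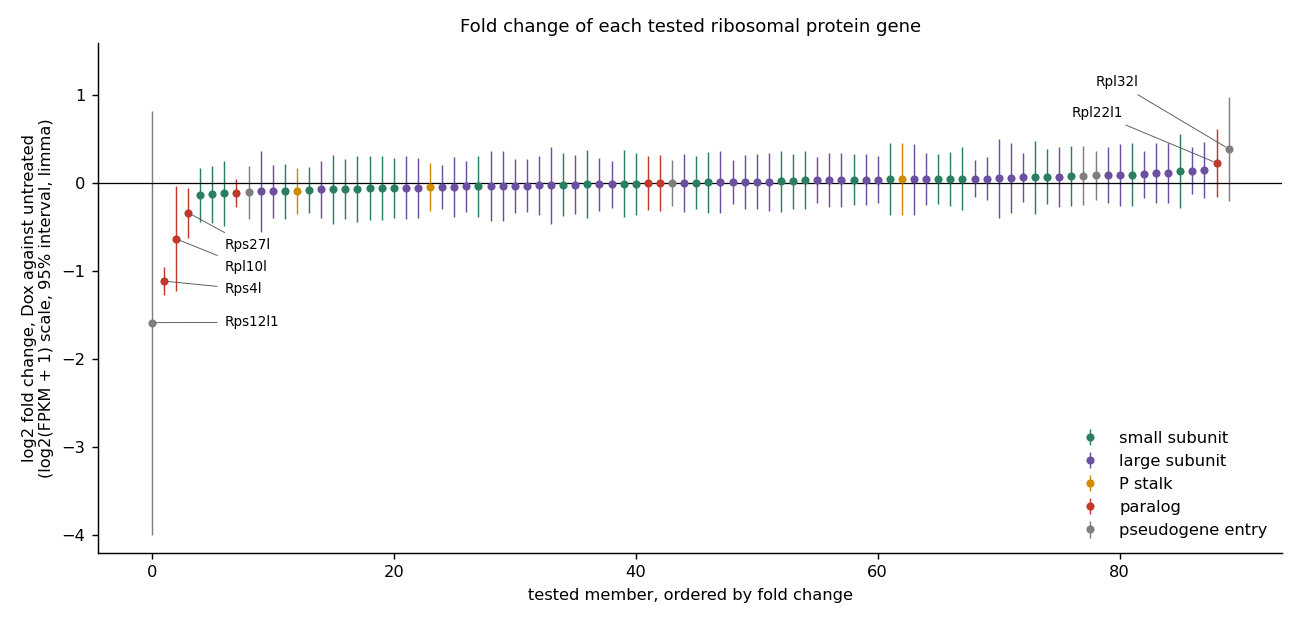
Log2 fold change with its 95% interval from limma for each of the 90 tested members, ordered by fold change and coloured by class. The canonical genes lie between -0.13 and 0.15 with intervals across 0, and Rps4l at -1.11 is the only member called.

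In the small subunit the 31 genes ran from -0.13 to 0.14 with a median of -0.00. Rps14, one of the 5 most abundant members and a protein of the platform of the subunit, was at 4792.35 and 5153.59 FPKM untreated and 5631.45 and 4681.49 FPKM with Dox (log2 fold change 0.05, SE 0.164). The Dox libraries bracketed the untreated ones. Rpsa, which also serves as a laminin receptor, was at 2167.4 and 2226.18 FPKM untreated and 2217.15 and 1919.36 FPKM with Dox (-0.09, SE 0.123). Rps27a, which is made as a fusion with ubiquitin, was at 2260.93 and 2488.27 FPKM untreated and 2552.35 and 2004.36 FPKM with Dox (-0.07, SE 0.157). For both the groups overlapped, with Dox replicate 2 the lowest library. Rps2 was lower in both Dox libraries, at 3908.59 and 4002.87 FPKM untreated and 3725.79 and 3530.62 FPKM with Dox, yet its difference was within the error of the fit (adjusted p = 0.619 in limma). Its exons overlap those of Snhg9 on the opposite strand, and whether counting used strand is not given in the sources used here.

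In the large subunit the 43 genes ran from -0.09 to 0.15 with a median of 0.02. Rpl5 and Rpl11, which bind Mdm2 together with 5S RNA, had log2 fold changes of -0.01 (SE 0.107) and -0.07 (SE 0.132). Rpl5 was at 851.15 and 904.36 FPKM untreated and 937.86 and 811.14 FPKM with Dox, and Rpl11 was at 1953.45 and 2084.54 FPKM untreated and 2100.81 and 1761.3 FPKM with Dox. In both genes Dox replicate 1 was the highest library and Dox replicate 2 the lowest, so the groups overlapped. Rpl23 and Rpl26, which also act on the Mdm2 and p53 axis, gave 0.04 (SE 0.124) and 0.06 (SE 0.159). Rpl23 was at 1552.33 and 1627.34 FPKM untreated and 1780.88 and 1501.59 FPKM with Dox, and Rpl26 was at 3060.05 and 3320.16 FPKM untreated and 3720.06 and 2969.98 FPKM with Dox. Rpl10, which completes the large subunit late in its assembly, had the highest canonical fold change at 0.15 (95% interval -0.17 to 0.47). It was at 1636.28 and 1733.51 FPKM untreated and 2035.14 and 1711.95 FPKM with Dox, and only Dox replicate 1 lay above both untreated libraries. Its fold change was 0.02 without Dox replicate 1 and 0.27 without Dox replicate 2.

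The P stalk genes, whose proteins recruit the elongation factors, had fold changes of -0.09 for Rplp0, 0.05 for Rplp1 and -0.04 for Rplp2. Rplp0 was at 1158.06 and 1195.2 FPKM untreated and 1180.69 and 1040.31 FPKM with Dox. Rplp2 was the single canonical gene that was highest in untreated replicate 1, at 1412.38 FPKM against 1234.23 FPKM in untreated replicate 2 and 1305.79 and 1255.69 FPKM with Dox. Rplp1 was the most abundant of the 3, at 5711.9 and 6149.13 FPKM untreated and 6574.79 and 5710.39 FPKM with Dox. The genes Fau and Rack1, which encode ribosomal subunit proteins under other names, had fold changes of 0.00 and 0.06, and neither was called (adjusted p = 0.988 and 0.807 in limma).

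As a block the members took 20.9% and 21.4% of the summed FPKM in the untreated libraries and 22.4% and 20.7% in the Dox libraries. The means were 21.2% ± 0.311 untreated and 21.6% ± 1.21 with Dox (SD, n = 2 each). The Dox libraries lay on either side of the untreated ones, and the exact two-sided permutation p was 1, where the smallest that 2 against 2 libraries allow is 0.333. The difference of the means was 0.423 percentage points and turned to -0.436 without Dox replicate 1. Over the tested members other than paralogs, the median of the Rps genes exceeded that of the Rpl genes by 0.68 and 0.68 log2 units untreated and by 0.61 and 0.66 with Dox. Both Dox values were lower, a difference of -0.04 (exact p = 0.333), which was -0.01 without Dox replicate 1 and -0.07 without Dox replicate 2. With the pseudogene entries left out too, the values were 0.70 and 0.69 untreated and 0.62 and 0.62 with Dox, a difference of -0.08 (exact p = 0.333).

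The canonical genes differed together between replicates by more than between groups. Relative to each gene's own mean, their median deviation was -0.05 and 0.04 log2 units in untreated replicates 1 and 2, and 0.13 and -0.11 in Dox replicates 1 and 2. From Dox replicate 1 to Dox replicate 2 all 77 were lower, by a median of -0.24, and 74 of 77 were higher in untreated replicate 2 than in untreated replicate 1, by a median of 0.09. The median difference between the group means was 0.01, or 5.93% of the difference between the Dox replicates. Dox replicate 1 was the highest library for 68 genes and Dox replicate 2 the lowest for 60. The median fold change of the tested members was -0.11 without Dox replicate 1 and 0.13 without Dox replicate 2.

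Taken as a median, other short transcripts deviated in each library with the same sign. The canonical transcripts had a median length of 851 nt against 2607 nt for all tested genes. Over the 2294 other tested genes under 1000 nt, the median deviation was -0.03 and 0.09 untreated and 0.06 and -0.11 with Dox, and in genes of 3000 nt or more it was 0.01, -0.01, -0.04 and 0.04 in the same library order. The mitochondrially encoded genes followed another order of libraries. They took 3.58% and 4.38% of the summed FPKM untreated and 3.43% and 2.9% with Dox, lower in both Dox libraries (exact p = 0.333). Their median log2 fold change was -0.23. Of the 13 genes 0 were called, and 5 had an unadjusted p below 0.05 in limma, against 23.9% of all tested genes. The part of transcript length in the shared deviation of the ribosomal protein genes was not tested.

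**Figure D3:**
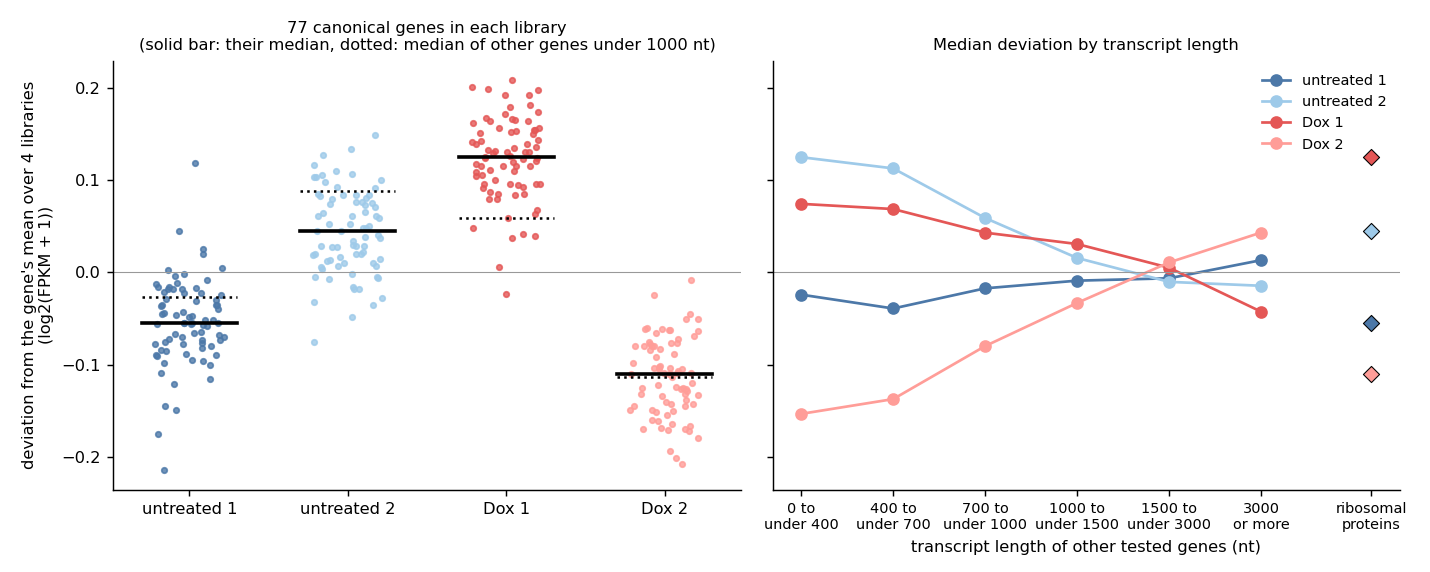
Left, deviation of each of the 77 canonical genes from its own mean over 4 libraries (log2(FPKM + 1)), 1 point per gene, with the median as a solid bar and the median of the 2294 other genes under 1000 nt as a dotted bar. Right, median deviation of the other tested genes by transcript length in nt, 1 line per library, with diamonds for the ribosomal protein genes at 0.13 in Dox replicate 1 and -0.11 in Dox replicate 2.

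When that shared deviation was taken out of each library, small differences among the canonical genes were visible. Relative to the median canonical gene of the same library, 25 canonical genes lay higher in both Dox libraries and 26 lay lower, against 36.5% of all tested genes with disjoint groups after the same shift, which was fitted on the ribosomal protein genes themselves. The differences between the groups ran from -0.14 to 0.14, the highest being Rpl10, with an SD over genes of 0.06. Rpl10 was at -0.06 and -0.08 untreated and 0.07 and 0.06 with Dox on this scale, so its groups did not overlap once the library offset was removed. This scale was chosen after the offset was seen, and in a fit shifted instead by the median of all tested members Rps2 and Rpl41 were among the 5 members called lower (4.51% of all tested genes), where limma pooled the spread of all genes without limit (infinite prior degrees of freedom).

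The single called member is a paralog. Rps4l is an intronless copy of Rps4x on chromosome 6 (chr6:148354656-148355598, plus strand, GRCm38) that GENCODE types as a transcribed processed pseudogene, although its transcript of 943 nt holds an open reading frame of 789 nt, against 792 nt for Rps4x. It was at 236.93 and 225.3 FPKM untreated and 106.77 and 106.08 FPKM with Dox. Both Dox libraries lay below both untreated libraries, by far more than either pair of replicates differed. The log2 fold change was -1.11 (SE 0.0653, 95% interval -1.27 to -0.95, adjusted p = 5.54e-04 in limma). It was called lower in all 17 other settings tried, at -1.15 to -1.07 with adjusted p-values from 5.75e-16 to 0.0147. In a bulk sample, fewer cells of a type and less RNA per cell cannot be told apart.

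The partner gene was not called. Rps4x, the X-linked gene of the same small subunit protein, was at 2216.22 and 2371.48 FPKM untreated and 2651.28 and 2225.5 FPKM with Dox (0.08, SE 0.136, adjusted p = 0.767 in limma). Rps4l was 10.7% and 9.50% of the Rps4x level in the untreated libraries and 4.03% and 4.77% in the Dox libraries. The coding sequences are identical at 80.1% of 789 aligned bases, and 1.66% of the 100-base stretches of Rps4l lie in another gene. The first 90 aligned coding bases that fall in 1 exon of both genes are shown, with the 22 differing bases in capitals. They are coding positions 82 to 171 of Rps4x.
Rps4x (chrX:102187913-102188002, minus strand): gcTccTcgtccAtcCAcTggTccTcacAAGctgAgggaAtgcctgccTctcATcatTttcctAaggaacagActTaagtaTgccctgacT
Rps4l (chr6:148354791-148354880, plus strand): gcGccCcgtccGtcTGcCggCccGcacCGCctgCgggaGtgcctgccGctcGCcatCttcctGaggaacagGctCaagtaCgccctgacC

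Rps27l, a paralog of Rps27 known as a transcriptional target of p53, was at 647.07 and 700.58 FPKM untreated and 584.52 and 488.78 FPKM with Dox. The groups did not overlap. Its log2 fold change was -0.33 (SE 0.114, unadjusted p = 0.0293 in limma), which did not pass after adjustment (adjusted p = 0.155). It was -0.46 without Dox replicate 1 and -0.20 without Dox replicate 2. It passed in 4 of 17 other settings (adjusted p from 0.00141 to 0.56 over all 17), among them 3 that rescale the libraries or remove length trends. Rps27 itself was at 4080.82 and 4519.9 FPKM untreated and 4993.06 and 4078.17 FPKM with Dox (0.07, SE 0.166). As a share of Rps27, Rps27l stood at 15.9% and 15.5% untreated and at 11.7% and 11.99% with Dox (exact p = 0.333, the smallest this design allows). No 100-base stretch of Rps27l lies in another gene, and it is identical to Rps27 at 76.1% of the 255 coding bases. The first 90 aligned coding bases in 1 exon of both are shown with the 24 differing bases in capitals, at coding positions 7 to 96 of Rps27.
Rps27 (chr3:90213212-90213301, minus strand): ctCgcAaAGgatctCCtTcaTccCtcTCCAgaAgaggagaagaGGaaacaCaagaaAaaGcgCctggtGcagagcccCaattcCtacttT
Rps27l (chr9:66946831-66946920, plus strand): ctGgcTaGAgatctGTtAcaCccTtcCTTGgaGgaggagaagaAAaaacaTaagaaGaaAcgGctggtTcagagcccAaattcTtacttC

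Rpl22l1 was higher with Dox relative to its partner Rpl22, a large subunit protein that also binds RNA outside the ribosome. Rpl22l1 was at 447.03 and 531.5 FPKM untreated and 653.69 and 502.15 FPKM with Dox (0.23, SE 0.155, adjusted p = 0.436 in limma), so its groups overlapped. Leaving out Dox replicate 1 gave a fold change of 0.04 and leaving out Dox replicate 2 gave 0.42, and with untreated replicate 1 or 2 left out it was 0.11 or 0.36. As a share of Rpl22 it was 36.5% and 41.3% untreated and 49.4% and 44.2% with Dox, where they did not (exact p = 0.333). Rpl22 was at 1225.67 and 1286.19 FPKM untreated and 1322.03 and 1135.86 FPKM with Dox.

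Shares of the partner did not overlap between the groups in 7 of the 9 pairs (5 lower and 2 higher with Dox). By FPKM the groups were disjoint for 53.4% of all tested genes, and no such background was computed for shares between genes. The 2 higher pairs were those of Rpl22l1 and of Rpl3l, which was near the floor at 0.18 FPKM or less in every library. Rpl36al was at 50.3% and 47.99% of Rpl36a untreated and 46.1% and 44.98% with Dox (exact p = 0.333), and its own fold change was 0.01 (SE 0.127). Rpl36al was at 831.06 and 863.57 FPKM untreated and 950.57 and 762.02 FPKM with Dox, and Rpl36a was at 1650.61 and 1799.45 FPKM untreated and 2063.9 and 1694.29 FPKM with Dox. Rpl7l1, a nucleolar relative of Rpl7 that acts in ribosome assembly, was at 135.5 and 140.82 FPKM untreated and 126.54 and 129.22 FPKM with Dox (-0.11, SE 0.0637, adjusted p = 0.368). It was lower in both Dox libraries, also as a share of Rpl7 (8.79% and 8.62% against 6.84% and 8.33%), and Rpl7 was at 1541 to 1850 FPKM over the 4 libraries. Rps27rt has coding bases identical to those of Rps27 over the whole 255, so its 121.48 to 146.64 FPKM cannot be separated from Rps27 with certainty.

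The lowest tested paralog was Rpl10l, a retrogene of Rpl10 best known from spermatogenesis, at 2.33 and 1.1 FPKM untreated and 0.76 and 0.66 FPKM with Dox. The groups did not overlap (-0.63, SE 0.240, unadjusted p = 0.0425, adjusted p = 0.191 in limma). Rpl39l, at 0.76 and 0.81 FPKM untreated and 1.00 and 0.7 FPKM with Dox, was 0.0696% to 0.0821% of Rpl39, whose libraries ran from 943.71 to 1219 FPKM. Rpl3l, the striated muscle form of Rpl3, was at 0.04 and 0 FPKM untreated and 0.18 and 0.04 FPKM with Dox, against 965.16 to 1090 FPKM for Rpl3.

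**Figure D4:**
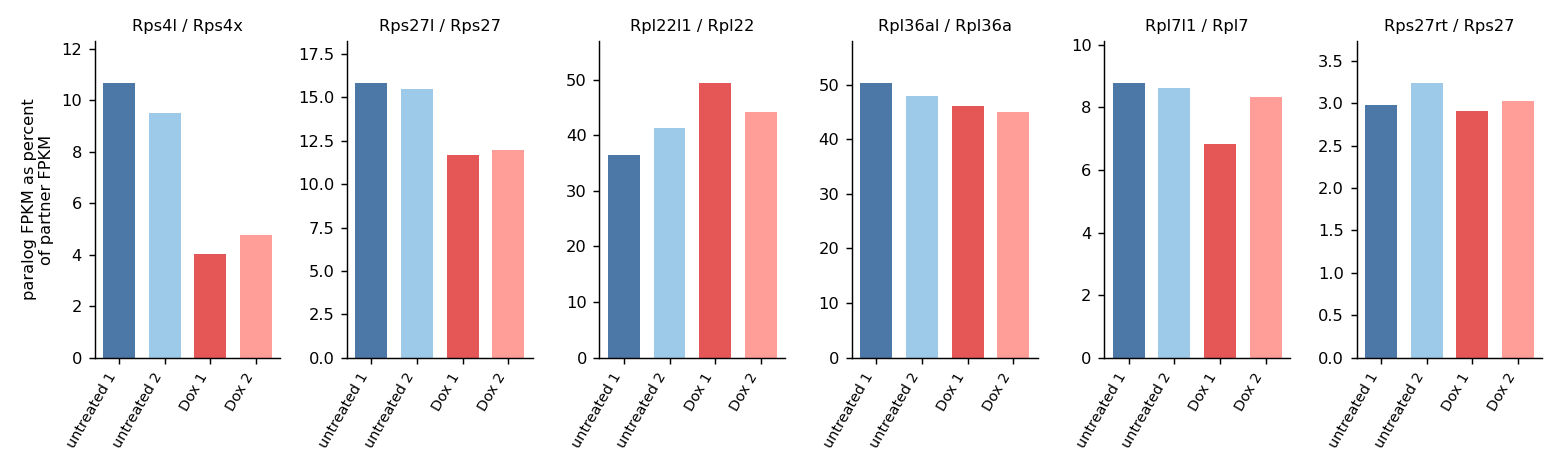
FPKM of 6 paralogs as a percent of the FPKM of their partner gene in each library, 1 bar per library from 0, blue for untreated and red for Dox. Rps4l (10.7% and 9.50% against 4.03% and 4.77%) and Rps27l (15.9% and 15.5% against 11.7% and 11.99%) are lower in both Dox libraries, as are Rpl36al and Rpl7l1. Rpl22l1 is higher in both, and Rps27rt overlaps.

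Of the 7 members typed as pseudogenes 1 was called, Rps4l, against 9.31% of all tested genes, and the other 6 were not. Rps3a2 and Rps3a3, copies of Rps3a1, were at 1649 to 2005 FPKM and 621.18 to 743.38 FPKM, and Rpl37rt was at 604.16 to 742.96 FPKM, with fold changes from -0.10 to 0.09. Of their 100-base stretches 78.6%, 31.6% and 27.3% also lie in other genes, as do 45.3% of those of Rps3a1. Reads therefore cannot be assigned between these copies and their parent genes with certainty, and their levels are uncertain. Rpl6l was at 7 to 8.12 FPKM and Rpl32l at 1.87 and 3.27 FPKM untreated and 4.26 and 3.02 FPKM with Dox (0.39, SE 0.235, adjusted p = 0.383 in limma). Rps12l1 was listed at 7.98 FPKM in untreated replicate 1 and at 0 in the other libraries. All of its 100-base stretches lie in other genes, so that value is uncertain. Sharing is common among the canonical genes too: 72 of 77 had at least 1 such stretch in another gene, with a median of 31.98% of stretches. The separate -ps rows of ribosomal protein genes, 220 of 309 above 0, together took 1.94% and 2.1% of the summed FPKM untreated and 2.1% and 1.87% with Dox. Over the 16 tested members with under 10% shared stretches the median log2 fold change was -0.03.

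The other genes of ribosome production were read against 9.31% called and 23.9% at an unadjusted p below 0.05 over all tested genes. Among translation factors with TOP mRNAs, 0 of 17 were called, with a median log2 fold change of 0.05. Among ribosome biogenesis factors 0 of 38 were called (median -0.02), among the RNA polymerase I machinery 0 of 14 (median -0.05) and among initiation factors 0 of 36 (median -0.01). At an unadjusted p below 0.05 there were 0, 2, 4 and 2 genes in these 4 lists. Eef1a1, the elongation factor that delivers aminoacyl-tRNA and the most abundant gene of these lists, was at 10714 and 11516 FPKM untreated and 11934 and 10509 FPKM with Dox, the same order of libraries as for the ribosomal protein genes. Of the 78 mitochondrial ribosomal protein genes, 1 was called, Mrpl58, a peptide release factor of the mitochondrial ribosome, which was lower (-0.46, adjusted p = 0.0253 in limma), and the list median was -0.08.

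The snoRNA hosts and the regulators held 2 calls each, of 12 and 15 genes, against 9.31% of all tested genes. Of the 12 snoRNA host transcripts, which are TOP RNAs whose introns carry guides for ribosomal RNA modification, Snhg12 and Snhg4 were higher. Snhg12 was at 30.11 and 34.2 FPKM untreated and 47.88 and 46.08 FPKM with Dox (0.54, adjusted p = 0.0169), and Snhg4 was at 8.47 and 8.69 FPKM untreated and 12.92 and 11.35 FPKM with Dox (0.45, adjusted p = 0.0482 in limma). Of the 15 regulators, the transcription factor genes Myc and Mycn, which drive ribosome production, changed in opposite directions. Myc rose from 2.86 and 2.77 FPKM to 14.45 and 18.35 FPKM (2.18, SE 0.133, adjusted p = 6.34e-04 in limma), and Mycn fell from 36.9 and 33.33 FPKM to 15.44 and 14.28 FPKM (-1.19, SE 0.0866, adjusted p = 0.00107). Mtor and Larp1 were not called, with fold changes of -0.15 and 0.12. Of 4 genes of the nucleolar surveillance pathway, Cdkn1a, the cell cycle inhibitor gene induced by p53, was lower, at 56 and 49 FPKM untreated and 26.86 and 27.78 FPKM with Dox (-0.91, adjusted p = 0.00269 in limma). Trp53 and Mdm2 had fold changes of 0.31 and -0.24 and did not pass (adjusted p = 0.0886 and 0.0840).

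**Figure D5:**
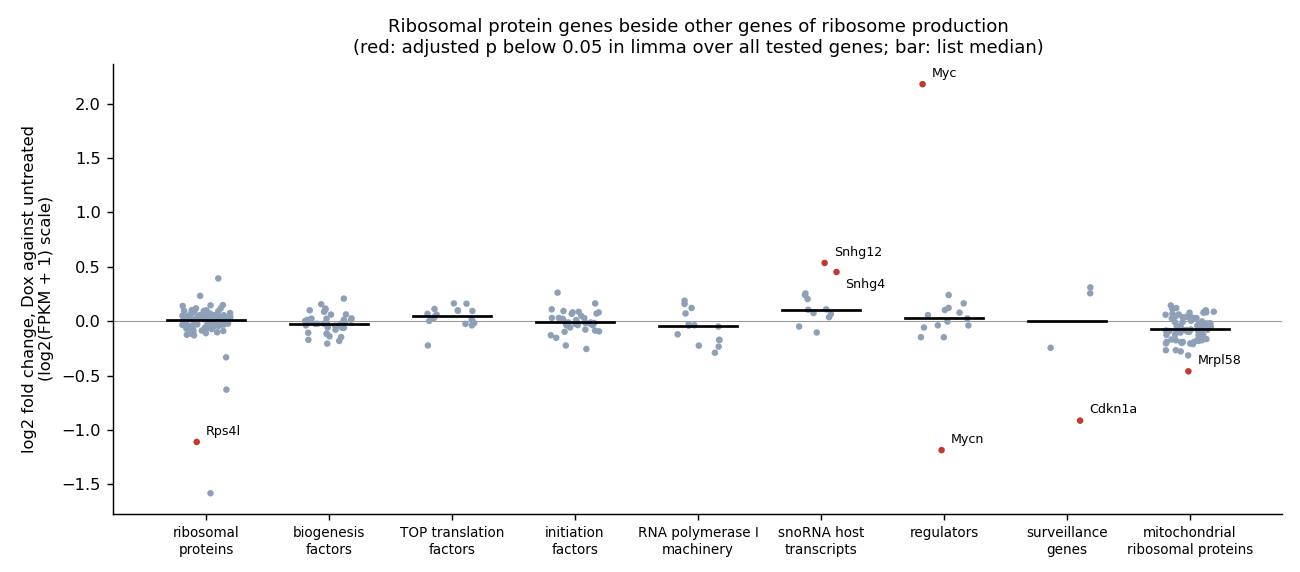
Log2 fold change of each tested gene, 1 point per gene, for the ribosomal proteins and 8 related lists, with the list median as a bar and genes with an adjusted p below 0.05 in red. The ribosomal proteins centre at 0.01 with Rps4l called, and Myc at 2.18 and Mycn at -1.19 are the farthest called genes on the plot.

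Markers of cell types differed between the groups in which no canonical ribosomal protein gene was called. Retinal progenitor markers were called higher for 7 of 8. Neuron markers were called lower for 7 of 7 tested, with summed levels of 153.56 to 157.6 FPKM untreated and 82.5 to 86.45 FPKM with Dox. Of the dorsal and caudal forebrain markers, 6 of 7 tested were called lower, with sums of 310.04 to 317.21 FPKM untreated and 33.47 to 37.24 FPKM with Dox. Pigment epithelium markers were higher for 3 of 3 tested (2.36 to 2.54 FPKM against 61.53 to 61.93 FPKM), and Rpe65 was at or below 0.1 FPKM in every library. Pluripotent cell markers gave 0 of 7 calls and surface epithelium markers 0 of 4, with Krt5, Krt14 and Trp63 at or below 0.1 FPKM, and no mesendoderm marker passed the filter. The part of these cell type differences in the fall of Rps4l was not tested.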

How the data were processed

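Poly(A)-selected RNA of 2 untreated and 2 Dox-treated organoid libraries was sequenced in pairs of reads. The authors deposited 1 table of FPKM values per gene and library, rounded to 2 decimals and not pooled. STAR, Cuffdiff and mm10 are listed in the submitters' processing notes, without roles or versions; the annotation release and strand setting are not given in the sources used here. Count models were not used on FPKM. Depth was fitted from low values, 77.2% to 79.6% of which were whole fragments within 0.1 fragment; since not nearly all were whole, no counts were recovered.

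Values were taken as log2(FPKM + 1). Genes reaching a mean of 1 FPKM (13931) were fitted with limma 3.58.1 (lmFit, eBayes with trend) in R 4.3.3, two-sided, without covariates, adjusted by Benjamini-Hochberg at 0.05; the steps were tested on simulated data. Single values per library were compared by exact permutation tests. GENCODE M21 (GRCm38), in which all 92 members matched by identifier, gave gene types, transcript lengths and coordinates, with 1 representative transcript per gene (coding, principal, best supported, longest). Start regions came from RefSeq. Shared sequence means 100-base stretches of that transcript found in another gene's transcripts. Python 3.11.15 was used.

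Members, lists and tests were chosen with earlier results of these data known. Named are every called member, the 5 highest and 5 lowest tested members, every paralog with its partner, Rpl5, Rpl11, Rpl22, Rpl23, Rpl26, Rpsa, Rps27a, the P stalk genes and up to 3 called genes per list; some genes under this rule are not reported here. Rps2, Rpl10a, Rpl7a, Rpl29, Rpl37rt, Rps3a2, Rps3a3 and the uncalled genes of the other lists were named after their values were seen. All libraries carry the same batch date in the labels and were not split by batch, although the protocol speaks of independent rounds of library preparation. Alternatives covered the pseudocount, filter, scaling, eBayes options, replicate block, each library left out and, added after seeing the data, a shift by the members' median deviation, members with little shared sequence and members without paralogs or pseudogene entries.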

Additional observations from a re-analysis of the deposited data

How the results depend on the processing

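With 2 libraries per group the 95% intervals of the canonical genes reached from -0.55 to 0.56, and low members such as Rps12l1 rest on a single library. No setting called a member higher. Rps4l was called lower in all 17 alternatives. The count of members called lower was 1, and it was 2 after rescaling to TPM, after quantile normalization and after removal of length and GC trends, where Rps27l joined. It was 5 with the added shift by the median tested member (Rps27l, Rps2, Rps4l, Rps12l1 and Rpl41), where the prior degrees of freedom were infinite. With each library left out in turn the count was 1 to 3, and the 3 without untreated replicate 2 were Rpl10l, Rps4l and Rps12l1, which left the single untreated library assumed to vary like the others. With the replicate block the count was 1 lower and 0 higher, and over all genes the block called 532 higher and 602 lower against 619 and 678. Same-numbered replicates deviated with a correlation of -0.04 over all tested genes, so the numbers were not shown to pair the libraries, and the block changed no call among the members. The calls over all genes without a filter were 336 higher and 409 lower, and with a mean of at least 5 FPKM 408 and 413, and with a library left out 265 to 332 and 341 to 370. The difference in share of summed FPKM ran from -0.436 to 1.28 percentage points with a library left out, and turned negative without Dox replicate 1. The median log2 fold change ran from -0.11 to 0.13, the subunit difference from -0.07 to -0.01. Single fold changes near 0 changed sign under rescaling to TPM (Rpl5 0.014), under rescaling to the other rows (Rpl5 0.0066), with length and GC trends removed (Rpl3 -0.0077), and with the added shift (Rpl36al -0.0057, Rpl6l -0.0044, Rps27rt -0.0084). With a library left out, sign changes gave these log2 ranges: Rpl11 -0.20 to 0.058, Rpl13a -0.0809 to 0.19, Rpl22 -0.14 to 0.0744, Rpl23 -0.0819 to 0.16, Rpl26 -0.10 to 0.22, Rpl3 -0.0715 to 0.10, Rpl36a -0.0246 to 0.26, Rpl36al -0.15 to 0.17, Rpl39 -0.12 to 0.22, Rpl41 -0.22 to 0.0336, Rpl5 -0.11 to 0.0961, Rpl6l -0.0866 to 0.10, Rpl7 -0.0332 to 0.22, Rplp0 -0.18 to 0.00514, Rplp1 -0.0536 to 0.15, Rplp2 -0.14 to 0.053, Rps14 -0.0862 to 0.18, Rps27 -0.0746 to 0.22, Rps27a -0.24 to 0.11, Rps27rt -0.13 to 0.14, Rps4x -0.0428 to 0.21, Rpsa -0.19 to 0.0134. The cause of these changes was not tested.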
